A study of Mus musculus with 7 samples.

Results

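The 10 genes described here encode inflammatory cytokines (Tnf, Il1a, Il1b, Il6 and Il18), the Toll-like receptors Tlr2 and Tlr4, the inflammasome sensor Nlrp3 and its adaptor Pycard (the protein ASC), and Ptgs2, the inducible cyclooxygenase COX-2. They were found by their symbols in the deposited expression table, 10 of 24346 genes, and all 10 were present. No gene of the 10 passed the test between Med23 CKO and control cultures. The mean of 9 of them was nonetheless higher in Med23 CKO, and all 9 stood in 1 library, KO_214, above every other library by more than 2 times. KO_214 was also the highest library, by any margin, for 25.4% of all genes tested. Without KO_214, 3 of the 9 (Il1a, Il1b and Tlr4) kept a higher mean. Il18 was the exception, with its lowest value in KO_214.

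These genes form a connected response. Toll-like receptors at the cell surface recognize microbial products and signals from damaged tissue and act through adaptor proteins and kinases on NF-kappaB, a transcription factor that turns on Tnf, Il6, the interleukin 1 genes, Nlrp3 and Ptgs2. The NLRP3 inflammasome, built from NLRP3, ASC and caspase-1, then cuts the precursors of interleukin 1 beta and interleukin 18 into their secreted forms, while COX-2 starts the synthesis of prostaglandins. In the brain, microglia are known as a main source of Tnf, Il1a, Il1b and of Toll-like receptors, and their cytokines can limit hippocampal neurogenesis.

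The study asked what the loss of Med23, a subunit of the Mediator complex that links transcription factors to RNA polymerase II, changes in adult hippocampal neural stem cells (NSCs). RNA was sequenced from primary neurospheres, floating spheres grown from the hippocampus of 2-month-old C57/BL6 mice for 8 days with EGF and FGF. There were 4 control libraries (WT_215, WT_116, WT_213 and WT_220, labelled wild type) and 3 Med23 CKO libraries (KO_117, KO_214 and KO_218), each from 1 mouse. Med23 CKO mice carried a tamoxifen-inducible Nestin-CreER transgene and floxed Med23 alleles (Med23 flox/flox), and the controls were littermates with floxed alleles but without Cre. Both groups were given tamoxifen at 200 mg/kg once a day by gavage on 5 days, at 2 months of age per the labels and at 1 month for cultures per the methods. The Nestin promoter drives Cre in neural stem cells and their progeny, and Nestin-driven Cre is also known to be active in endothelial cells, so a culture may mix cells with and without intact Med23. Values are FPKM, fragments counted relative to transcript length and to the mapped fragments of the library, which take account of gene length and so can be compared between genes.

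The sequence upstream of several of the genes is shown because these promoters are textbook targets of inducible transcription. RefSeq promoter windows of 300 bases (250 before the start site and 50 after it, GRCm38.p6, the same assembly as mm10) matched 9 of the 10 genes, all but Tlr4. The 100 bases before the start site, 5′ to 3′ on the gene's own strand, hold a TATA box (letters TATAAA, in capitals) at Tnf (chr17:35202008-35202107, minus strand), Il1a (chr2:129309973-129310072, minus strand) and Il1b (chr2:129371140-129371239, minus strand):
Tnf: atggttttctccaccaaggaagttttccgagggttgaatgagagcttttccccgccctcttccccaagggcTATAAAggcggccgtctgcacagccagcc
Il1a: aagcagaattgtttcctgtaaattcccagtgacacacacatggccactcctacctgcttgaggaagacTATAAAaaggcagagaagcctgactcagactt
Il1b: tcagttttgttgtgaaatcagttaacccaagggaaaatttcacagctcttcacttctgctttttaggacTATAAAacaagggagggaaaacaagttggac

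A kappaB motif, the kind of site NF-kappaB binds, is marked in capitals upstream of Il6 (chr5:30013014-30013113, plus strand) and Tlr2 (chr3:83841609-83841788, minus strand, 180 bases), and Il18 (chr9:50554600-50554699, plus strand) is shown as one of the genes with no kappaB match in the window, as were Tnf, Il1a, Il1b, Pycard and Ptgs2:
Il6: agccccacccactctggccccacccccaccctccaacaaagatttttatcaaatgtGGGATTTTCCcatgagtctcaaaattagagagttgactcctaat
Tlr2: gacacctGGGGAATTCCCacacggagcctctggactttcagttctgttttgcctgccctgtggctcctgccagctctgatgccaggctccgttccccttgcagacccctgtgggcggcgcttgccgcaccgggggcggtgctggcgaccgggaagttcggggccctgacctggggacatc
Il18: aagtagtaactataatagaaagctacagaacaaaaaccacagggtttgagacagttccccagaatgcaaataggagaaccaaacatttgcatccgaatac

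Each motif was searched on both strands of the whole window. The kappaB motif was found at Il6, Tlr2 and Nlrp3 (1 of its 2 windows), 3 of 9 genes, and at 5.14% of all 27025 genes with a window (4.51% of 32851 windows). The capitals at Tlr2 cover a pair of overlapping matches, and a further Tlr2 match crosses the start site. The AP-1 motif TGANTCA was found at Il1a and Il6 and at 8.97% of genes, and TATAAA at Tnf, Il1a, Il1b and, on the other strand, Il18, and at 15.7% of genes. The PU.1 motif GAGGAAGT, named for a factor of the myeloid lineage, was found at Pycard alone of the 9 and at 3.69% of genes. A match describes letters and is not a site shown to be bound. For Il1a, Il1b and Tlr2 the gene interval given below, from a RefSeq gene list, began further upstream than the start site of the promoter window.

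Among the libraries, Med23 itself (chr10:24869986-24913529) was at 11.4, 10.3, 12.9 and 10.1 FPKM in the controls and at 9.97, 9.27 and 8.12 in Med23 CKO. The groups did not overlap, with a log2 fold change of -0.26 (SE 0.18) and an exact permutation p of 0.0571, and a value over the whole gene includes exons outside the deleted part. Of 14151 genes with a mean of at least 0.5 FPKM, 0 (0%) had an adjusted p under 0.05 by limma, while at an unadjusted p under 0.05 Med23 CKO was higher for 71 genes (0.502%) and lower for 141 (0.996%). KO_214 stood apart: it was the highest library for 25.4% and the lowest for 18.7% of the genes tested. All 14 neural stem cell markers examined were above 0 in every library, and Vim alone reached 708 to 1694 FPKM.

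Tnf, the cytokine tumor necrosis factor alpha (chr17:35199367-35202007), was at 1.27, 0.751, 1.79 and 0.327 FPKM in the controls (given throughout in the order WT_215, WT_116, WT_213, WT_220), and at 0.287, 15.2 and 0.938 FPKM in KO_117, KO_214 and KO_218. KO_117 lay under every control, KO_218 inside their range and KO_214 far above it. Control cultures averaged 1.03 ± 0.634 FPKM (SD, n = 4) and Med23 CKO cultures 5.46 ± 8.41 FPKM (SD, n = 3), which gave a log2 fold change of 0.81 on the log2(FPKM + 1) scale (SE 0.82, exact permutation p = 0.629). Without KO_214 the fold change of Tnf was -0.31. Its SD in Med23 CKO exceeded its mean, as KO_214 was 17.9 times the median of the other 6 libraries.

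The interleukin 1 genes differed in level and in which libraries were high. Il1a, which encodes interleukin 1 alpha, an alarm cytokine active without inflammasome cleavage (chr2:129299609-129310186), was at 0.197, 0.392, 0.364 and 0.127 FPKM in the controls and at 0.0645, 5.22 and 2.34 FPKM in KO_117, KO_214 and KO_218. It was the gene in which a second Med23 CKO library stood well out of the control range: KO_214 was 13.3 times and KO_218 5.97 times the highest control, whereas KO_117 was at 0.506 of the lowest control. The means were 0.270 ± 0.129 FPKM (SD, n = 4) and 2.54 ± 2.58 (SD, n = 3), with a log2 fold change of 1.15 (SE 0.54, exact permutation p = 0.171), the largest of the 10 genes. In limma its unadjusted p was 0.0688 and its adjusted p 0.9999. The fold change of Il1a stayed above 0 without any single library, from 0.58 without KO_214 to 1.85 without KO_117.

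Il1b, which encodes interleukin 1 beta, the main product of the inflammasome (chr2:129364569-129371164), was close to undetected. It was listed at 0.0420 FPKM in WT_215 and at 0 in the other 3 controls, and at 0 in KO_117, 0.143 in KO_214 and 0.0647 in KO_218. The groups overlapped, the gene fell under the minimum mean and was left out of the limma fit, and the exact permutation p was 0.257. In these cultures interleukin 1 transcripts were thus mostly Il1a, with a higher value than Il1b in all 7 libraries.

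Il6, a cytokine that signals through the gp130 receptor and STAT3 (chr5:30013114-30019975), was at 0.280, 0, 0.331 and 0.0353 FPKM in the controls and at 0, 3.36 and 0.119 FPKM in KO_117, KO_214 and KO_218. Apart from KO_214, every library was under 0.4 FPKM, and the other pair of Med23 CKO libraries lay within the control range. The means were 0.162 ± 0.168 FPKM (SD, n = 4) and 1.16 ± 1.91 (SD, n = 3), a log2 fold change of 0.56 (SE 0.51, exact permutation p = 0.486) that went to -0.12 without KO_214.

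Il18, a cytokine made as an inactive precursor in many cell types (chr9:50554700-50581841), had the highest mean of the 10 genes in both groups and varied least over the libraries, although in KO_214 Ptgs2 and Tnf were above it. It was at 20.45, 18.15, 20.15 and 15.7 FPKM in the controls and at 16.05, 12.5 and 21.3 FPKM in KO_117, KO_214 and KO_218. In contrast to the other genes, KO_214 held its lowest value, 0.652 of the median of the other 6 libraries, and KO_218 its highest. The means, 18.6 ± 2.18 FPKM (SD, n = 4) and 16.6 ± 4.41 (SD, n = 3), gave a log2 fold change of -0.18 (SE 0.22, exact permutation p = 0.486), and -0.0036 without KO_214. From lowest to highest library Il18 varied 1.70-fold, against 10.5-fold for Tlr4, the next steadiest gene listed above 0 in every library.

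**Figure D1:**
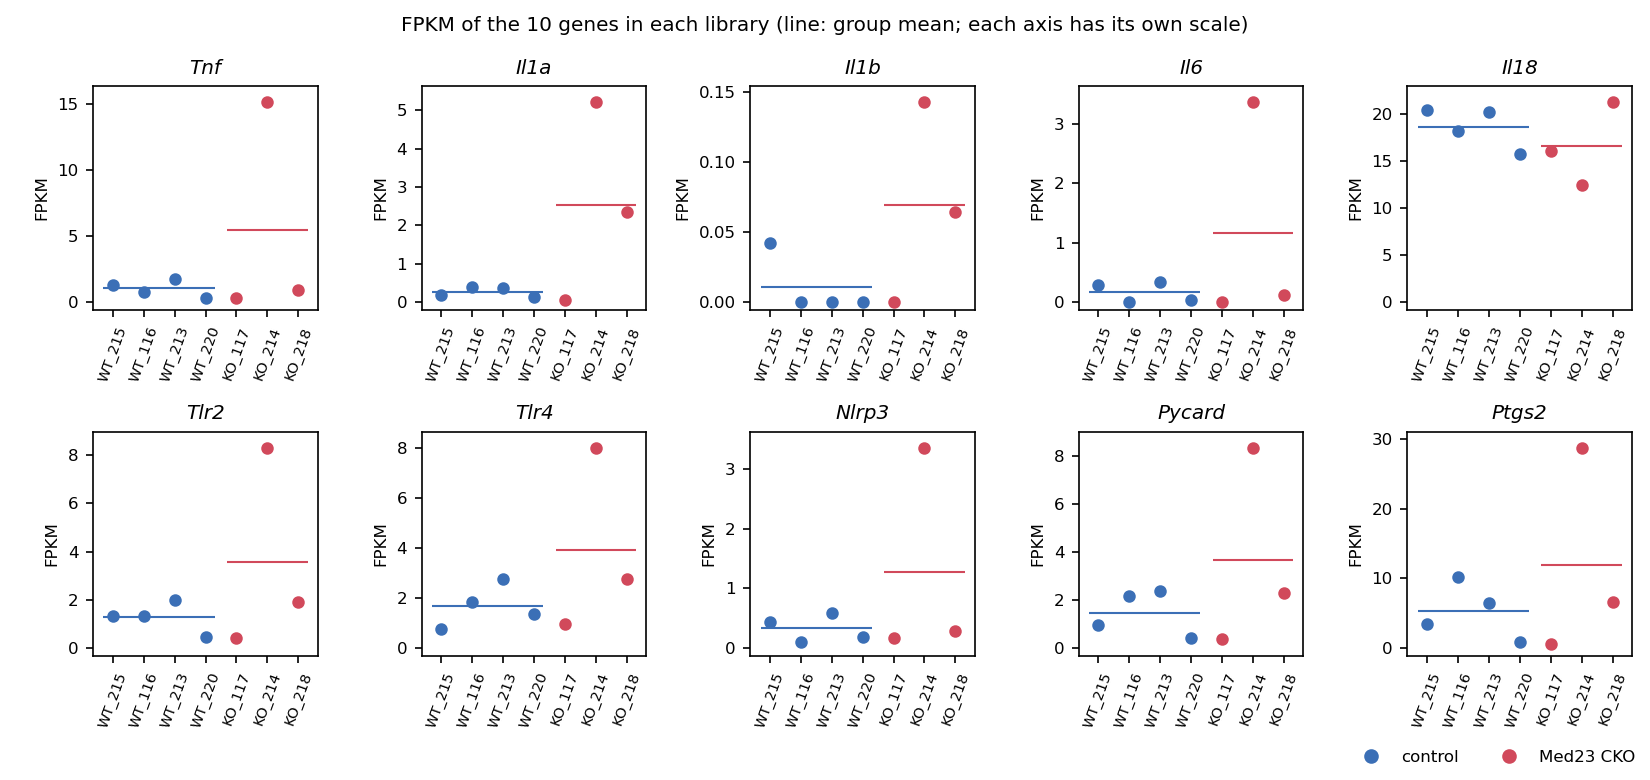
FPKM of each of the 10 genes in 4 control (blue) and 3 Med23 CKO (red) libraries, 1 point a library, with a line at each group mean and a separate vertical scale for each gene. KO_214 is the highest point for 9 genes and the lowest for Il18, and the other 2 Med23 CKO points mostly sit at or near the control points.

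Tlr2, which with Tlr1 or Tlr6 recognizes bacterial lipoproteins (chr3:83836272-83841824), was at 1.32, 1.34, 1.98 and 0.474 FPKM in the controls and at 0.430, 8.30 and 1.93 FPKM in KO_117, KO_214 and KO_218. KO_218 was inside the control range and KO_117 just under it. The means were 1.28 ± 0.616 FPKM (SD, n = 4) and 3.55 ± 4.18 (SD, n = 3), with a log2 fold change of 0.62 (SE 0.60, exact permutation p = 0.457), which was -0.11 without KO_214 and 1.24 without KO_117. Tlr4, the receptor for lipopolysaccharide (chr4:66827551-66846581), was at 0.759, 1.85, 2.76 and 1.34 FPKM in the controls and at 0.940, 8.0 and 2.77 FPKM in the Med23 CKO libraries in the same order. Its lowest value was in the control WT_215, not in KO_117, and KO_218 was level with the highest control. The means of Tlr4 were 1.68 ± 0.850 FPKM (SD, n = 4) and 3.90 ± 3.66 (SD, n = 3), and its log2 fold change of 0.65 (SE 0.52, exact permutation p = 0.343) was 0.07 without KO_214.

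The inflammasome genes differed in level. Nlrp3 (chr11:59541569-59566955), the sensor, was at 0.441, 0.105, 0.581 and 0.192 FPKM in the controls and at 0.166, 3.35 and 0.287 FPKM in KO_117, KO_214 and KO_218. Both KO_117 and KO_218 were within the control range, so that Nlrp3 was high in KO_214 alone. The log2 fold change was 0.51 (SE 0.46, exact permutation p = 0.486) for means of 0.330 ± 0.22 FPKM (SD, n = 4) and 1.27 ± 1.81 (SD, n = 3), and -0.10 without KO_214. Pycard (chr7:127991373-127993867), the adaptor that joins the sensor to caspase-1, was at 0.949, 2.16, 2.36 and 0.398 FPKM in the controls and at 0.389, 8.32 and 2.28 FPKM in the Med23 CKO libraries. WT_220 and KO_117 shared the bottom of its range, with WT_116, WT_213 and KO_218 close together above them. Its means were 1.47 ± 0.947 FPKM (SD, n = 4) and 3.66 ± 4.14 (SD, n = 3), and its log2 fold change was 0.59 (SE 0.64, exact permutation p = 0.571), or -0.12 without KO_214.

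Ptgs2, the enzyme that commits arachidonic acid to prostaglandins (chr1:150100031-150108234), was at 3.49, 10.2, 6.53 and 0.882 FPKM in the controls and at 0.566, 28.8 and 6.66 FPKM in KO_117, KO_214 and KO_218. The controls alone spanned more than 10-fold, the widest span among the 8 genes listed above 0 in every library. The means were 5.28 ± 4.02 FPKM (SD, n = 4) and 12 ± 14.8 (SD, n = 3), with a log2 fold change of 0.46 (SE 1.01, exact permutation p = 0.771). Ptgs2 had the largest standard error of the genes fitted, and its fold change was -0.58 without KO_214 and -0.03 without the control WT_220.

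In the controls the order of mean level was Il18, Ptgs2, Tlr4, Pycard, Tlr2, Tnf, Nlrp3, Il1a, Il6 and Il1b. Il18 was apart from Ptgs2, with every control above the highest Ptgs2 control. For each other pair of neighbours in that order the control ranges overlapped.

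Of the 10 genes, 9 had a higher mean and 1 a lower mean in Med23 CKO. Il1b was left out of the fit, and of the 9 genes fitted, 0 passed at an adjusted p under 0.05 by limma (0.9999 for each) and 0 at an unadjusted p under 0.05, against the 0.502% of all genes that were higher and 0.996% that were lower at that level. No gene had its Med23 CKO libraries all above or all below the controls, as 0.784% and 1.53% of genes tested did. The median log2 fold change over the 10 genes was 0.57, beside -0.03 over all genes tested. With 3 and 4 libraries the smallest exact permutation p is 0.0286.

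The Med23 CKO libraries did not move together in these genes. KO_214 was above all 4 controls for 9 genes, KO_117 was under all 4 controls for 5 (Tnf, Il1a, Tlr2, Pycard and Ptgs2), and KO_218 was within the control range for 6. KO_214 was the highest of all libraries for those 9 genes and for 25.4% of all genes tested. KO_117 was the lowest for those 5 and for 20.6% of all genes tested. The shares of all genes outside or within the control range were not computed for single libraries. The 4 genes in which KO_218 exceeded every control were Il1a, Il1b, Il18 and Tlr4. Without KO_214, 3 of the 10 genes kept a higher mean in Med23 CKO (Il1a, Il1b and Tlr4), and the median was -0.11. Without KO_117 the median was 1.21, and 4 genes had an unadjusted limma p under 0.05, namely Il1a, Tlr4, Tlr2 and Pycard. Those values ran from 0.000454 for Il1a to 0.0489 for Pycard, their adjusted p by limma was 0.596, and 2.53% of all genes were higher at that unadjusted level in the same fit.

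**Figure D2:**
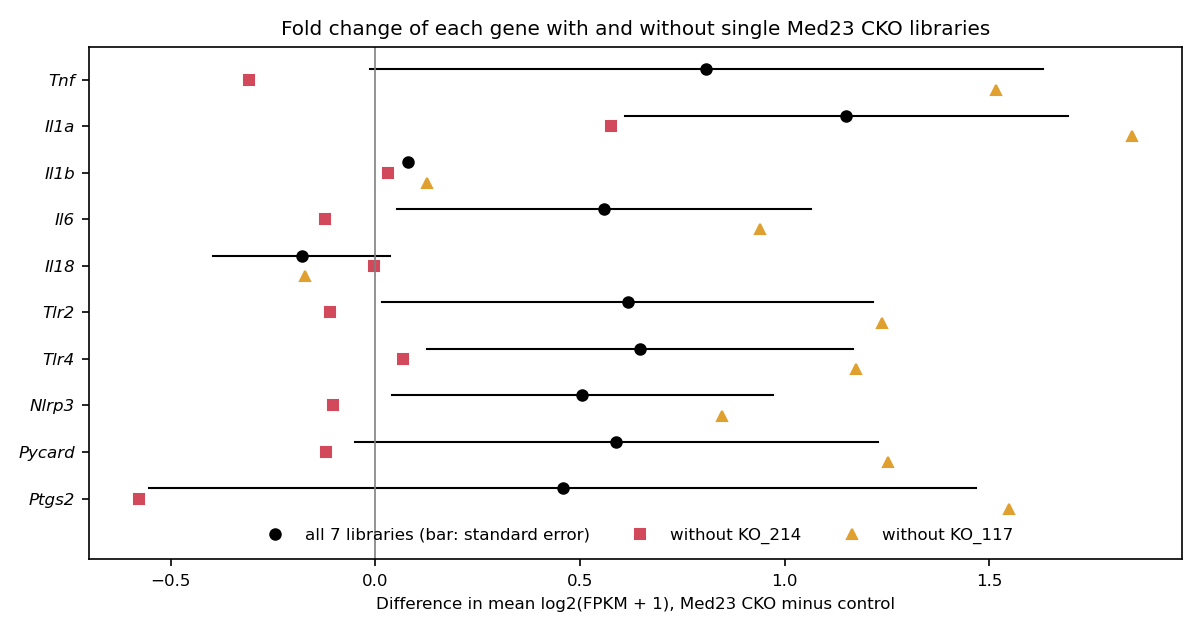
Difference in mean log2(FPKM + 1), Med23 CKO minus control, for each of the 10 genes with all 7 libraries (black circles, bars give the standard error, none for the unfitted Il1b), without KO_214 (red squares) and without KO_117 (orange triangles). Without KO_214, Tnf, Il6, Tlr2, Nlrp3, Pycard and Ptgs2 cross to the left of 0 and Il18 lies at 0, while Il1a, Il1b and Tlr4 stay to the right.

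Markers of other cells moved in the same libraries. The summed level of 20 microglia and macrophage markers was 248, 455, 582 and 142 FPKM in the controls, and 126, 2316 and 459 FPKM in KO_117, KO_214 and KO_218. KO_214 was thus 3.98 times the highest control, and the controls themselves differed by 4.10 times. None of the 20 markers was at 0 in any library, and 18 were highest in KO_214. The exceptions were Cx3cr1, the fractalkine receptor, at 0.157 FPKM in KO_214 and 0.0866 to 0.782 in the controls, and P2ry12, a purinergic receptor of resting microglia, at 1.24 FPKM in KO_214 and 0.434 to 1.60 in the controls.

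Other lists moved as well. All 10 endothelial and all 10 mural cell and fibroblast markers were highest in KO_214, with summed levels of 141 and 548 FPKM there, against 15.6 to 80.2 and 15.1 to 123 FPKM in the controls. Of 11 neutrophil and lymphocyte markers in the table, S100a8, a granulocyte protein, was at 17.2 FPKM in KO_214, at 0 in KO_117 and KO_218 and at 0.900 to 1.98 in the controls. Its partner S100a9 was at 0.535 FPKM in KO_214, inside its control range of 0.263 to 0.555, while Elane was at 0 in every library and 4 to 8 of the 11 were at 0 in each library. The summed level of the 14 neural stem cell markers in KO_214, 2271 FPKM, lay inside the control range of 2130 to 4169, and 2 of them, Gfap and Prom1, were highest in KO_214. None of the 10 neuron or 9 oligodendrocyte lineage markers was highest in KO_214, and 1 of them, Gad1, which makes the transmitter GABA, was lower in Med23 CKO at an unadjusted limma p under 0.05 (log2 fold change -1.32, SE 0.27, adjusted limma p 0.9999). In bulk RNA, fewer cells of a type and less RNA per cell cannot be told apart, and the part of these markers in the values of the 10 genes was not tested.

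The genes differed in how closely they followed the microglia and macrophage markers over the 7 libraries. Correlations with the other marker lists were not run, so the relation cannot be called particular to microglia. By mean log2(FPKM + 1), the endothelial markers put the 7 libraries in the same order as Pycard and Tlr2 did. The mural cell and fibroblast markers put them in the same order as Tnf did. For Pycard, Pearson's r with the mean log2(FPKM + 1) of the 20 markers was 0.997 (permutation p = 0.000397, adjusted 0.00198 over the 10 genes) and Spearman's rho 0.964 (permutation p = 0.00278, adjusted 0.0139). For Tlr2, r was 0.976 and rho 0.964 with the same permutation p-values. With KO_214 and WT_220, the libraries farthest from the median, left out, r over the other 5 libraries was 0.986 for Pycard and 0.927 for Tlr2.

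Ptgs2 (r = 0.961, permutation p = 0.00238, rho = 0.821, permutation p = 0.0341) and Tlr4 (r = 0.934, permutation p = 0.00635, rho = 0.821, permutation p = 0.0341) came next, with r of 0.916 and 0.875 over those 5 libraries. Tnf had r of 0.914 (permutation p = 0.00456) and rho of 0.857 (permutation p = 0.0238), with 0.727 left. For these 3 genes the adjusted p was 0.00794, 0.0127 and 0.0114 for r and 0.0569 for rho.

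For the other cytokines and Nlrp3, Pearson's r changed more when the far libraries were left out, although the rho of Il1a equalled that of Tnf. Over 5 libraries with a narrower range of marker levels, r is imprecise. Over all 7 libraries r was 0.852 for Il1a (permutation p = 0.0115, rho = 0.857, permutation p = 0.0238), 0.848 for Il6 (permutation p = 0.0238, rho = 0.721, permutation p = 0.0778), 0.846 for Nlrp3 (permutation p = 0.0274, rho = 0.679, permutation p = 0.11) and 0.773 for Il1b (permutation p = 0.0381, rho = 0.571, permutation p = 0.2). With KO_214 and WT_220 left out it was 0.513, 0.404, 0.376 and 0.102. The adjusted p was 0.0192, 0.034, 0.0342 and 0.0423 for r, and 0.0569, 0.111, 0.137 and 0.222 for rho. Il18 had r of -0.33 (permutation p = 0.46, adjusted 0.46) and rho of 0.0714 (permutation p = 0.906, adjusted 0.906), and r of 0.678 with those libraries left out. Each group has under 6 libraries, so no value within a group is given.

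**Figure D3:**
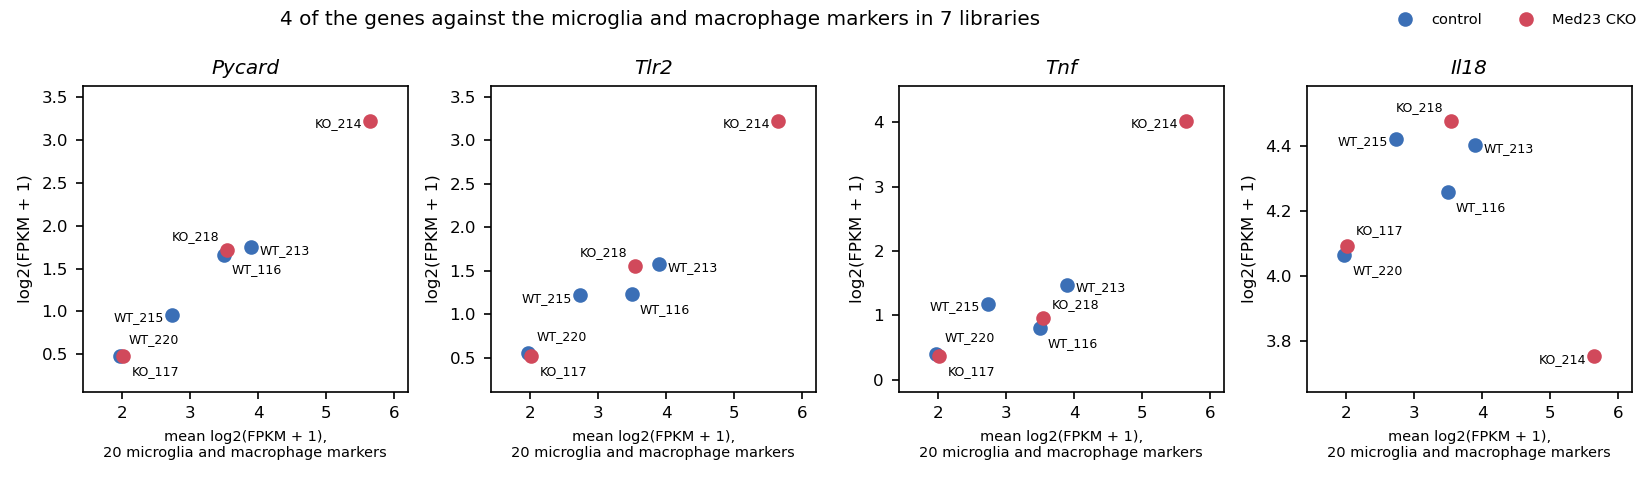
Level of Pycard, Tlr2, Tnf and Il18 in log2(FPKM + 1) against the mean log2(FPKM + 1) of 20 microglia and macrophage markers, 1 point a library, control in blue and Med23 CKO in red. Pycard and Tlr2 climb with the markers over all 7 libraries, Tnf is more scattered among the middle libraries, and Il18 lies lowest in KO_214, where the markers are highest.

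Set against the markers, several differences between libraries became smaller and Il1a remained different. Per 1000 FPKM of the summed microglia and macrophage markers, a ratio chosen after the values were seen, Pycard was between 2.81 and 4.97 over the 7 libraries, a 1.77-fold span against 21.4-fold in FPKM. Tlr2 was between 2.95 and 5.34, a 1.81-fold span against 19.3-fold. For Pycard and Tlr2, KO_214 lay inside the control range on this scale, at 3.59 and 3.58. A single marker, Hexa, weighs more in the sum of the low libraries. It was at 62.2 of 142 FPKM in WT_220 and 43.8 of 126 in KO_117, but at 164 of 2316 in KO_214. Positions against the control range therefore hold for this set of markers only, and the ratio without Hexa is not given.

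On that ratio Tlr4 spanned 3.06 to 9.46, with KO_214 at 3.45, toward the low end. Ptgs2 spanned 4.50 to 22.4, with KO_214 at 12.4, between the controls. Tnf was highest in KO_214 at 6.55, against 1.65 to 5.12 in the controls. KO_214 therefore exceeded the controls for Tnf on this sum, though by less than in FPKM. The nearest control was WT_215, where Hexa made up 67.0 of 248 summed FPKM, against 164 of 2316 in KO_214. The size of this excess thus depends on that marker.

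For Il1a, 2 Med23 CKO libraries stayed above all controls on this scale. The controls were at 0.793, 0.862, 0.626 and 0.898, and KO_117, KO_214 and KO_218 at 0.513, 2.25 and 5.10. KO_218, whose markers were inside the control range, was the highest. KO_117 was under all controls, so the Med23 CKO libraries lay on both sides, although the place of KO_117 depends on the weight of Hexa in its sum. Il6 was at 1.45 in KO_214 and from 0 to 1.13 in the controls, and Nlrp3 at 1.45 in KO_214 and 0.230 to 1.78 in the controls. Il18 was at 5.39 in KO_214 and 34.6 to 111 in the controls, under every control. With this marker sum, KO_214 was above every control for Tnf, Il1a and Il6. It was inside the control range for Il1b, Nlrp3, Pycard, Ptgs2, Tlr2 and Tlr4.

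**Figure D4:**
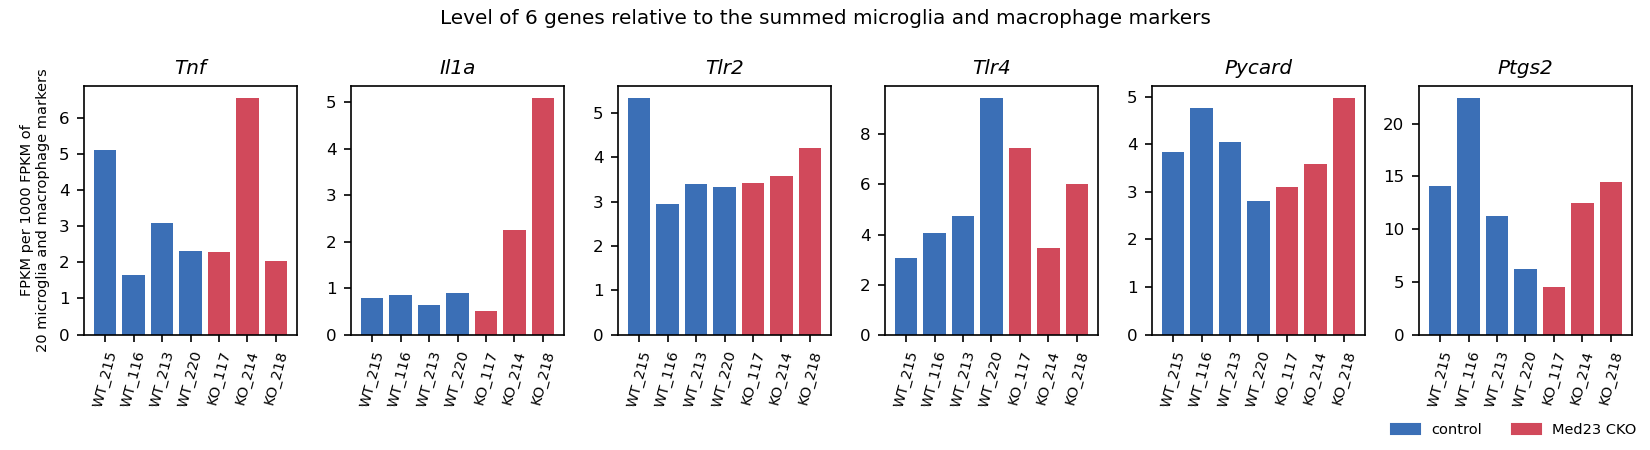
FPKM of Tnf, Il1a, Tlr2, Tlr4, Pycard and Ptgs2 per 1000 FPKM of the 20 summed microglia and macrophage markers, 1 bar a library, control in blue and Med23 CKO in red, with a separate scale for each gene. From the lowest to the highest library, Tlr2 bars span 1.81-fold and Pycard bars 1.77-fold. Il1a bars are taller in KO_214 (2.25) and KO_218 (5.10) than in any control (up to 0.898).

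Around the 10 genes, 7 lists of the same pathways held 122 further genes, of which 92 were fitted. By limma, 0 passed at an adjusted p under 0.05, 0 were higher and 1 was lower at an unadjusted p under 0.05 (1.09%, beside 0.996% of all genes). The mean of 73 of the 92 was higher in Med23 CKO, and 69 (75%) were highest in KO_214, beside 25.4% of all genes tested. Their median log2 fold change was 0.25, and -0.14 without KO_214, beside -0.03 and -0.06 over all genes tested. Without KO_117, 11 of the 92 genes were higher at an unadjusted p under 0.05 by limma, where 2.53% of all genes were.

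The gene that was lower was P2rx7, an ATP-gated channel whose opening triggers the NLRP3 inflammasome. P2rx7 was at 20.2, 18.9, 16.9 and 26.4 FPKM in the controls and at 8.49, 15.7 and 10.03 FPKM in KO_117, KO_214 and KO_218. All Med23 CKO libraries lay under all controls, and in no other gene fitted from these lists were the groups apart. The means were 20.6 ± 4.11 FPKM (SD, n = 4) and 11.4 ± 3.82 (SD, n = 3), with a log2 fold change of -0.82 (SE 0.25) and an exact permutation p of 0.0286, the smallest possible. Its unadjusted limma p was 0.0132 and its adjusted limma p 0.9999, and the fold change ran from -1.06 without KO_214 to -0.65 without KO_117.

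Among the receptors for these cytokines and their antagonists, 8 of 11 genes were fitted and none passed. Il1rap, the accessory chain of the interleukin 1 receptor, was at 39.2 to 90.0 FPKM in the controls and at 25.2, 61.5 and 61.1 in KO_117, KO_214 and KO_218. Il6st, which encodes gp130, and Tnfrsf1a, the main receptor for tumor necrosis factor, had log2 fold changes of 0.22 (SE 0.33) and 0.21 (SE 0.28). These receptor genes, the most abundant of their list, were above 10 FPKM in every library, while Il1a, Il6 and Tnf themselves were under 3 FPKM outside KO_214. Other receptor chains were lower, with Il1r1 at 0.956 to 5.42 FPKM and Il6ra at 0.240 to 3.36 FPKM over the libraries, both named after their values were seen. Il1rn, the interleukin 1 receptor antagonist and named after its values were seen, was at 49.8 FPKM in KO_214 and at 0.277 to 4.12 in the other libraries.

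Of 20 other inflammatory cytokines, 9 were fitted and none passed. Il33, an alarm cytokine of the interleukin 1 family, was at 115.7, 478, 206 and 25.7 FPKM in the controls and at 10.7, 335 and 227 FPKM in KO_117, KO_214 and KO_218, far above Il1a and Il1b in each library. Spp1, osteopontin, was at 5420 FPKM in KO_214 and at 97.6 to 922 in the controls. Mif, macrophage migration inhibitory factor, was at 1511, 502 and 384 FPKM in KO_117, KO_214 and KO_218 and at 522 to 1360 in the controls, so that the Med23 CKO libraries lay on both sides of the controls.

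Of 16 other Toll receptors and co-receptors, 11 were fitted, none passed and 13 were highest in KO_214. Cd14, which hands lipopolysaccharide to Tlr4, was at 65.0 FPKM in KO_214 and 1.77 to 7.58 in the controls, and Ly96, the MD-2 subunit of the Tlr4 complex, at 19.9 in KO_214 and 1.40 to 13.8 in the controls. In KO_117 Cd14 was at 2.12 and Ly96 at 1.41 FPKM, near the lowest control. Unc93b1, which brings Toll receptors to endosomes, was at 51.7 FPKM in KO_214 and 10.2 to 20.4 in the controls. The log2 fold changes were 1.02 (SE 0.98), 0.34 (SE 0.92) and 0.51 (SE 0.54).

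The 19 Toll adaptors and kinases were all fitted, and none passed, with a median log2 fold change of 0.11. The most abundant, Irak1, Map3k7 and Tab2, kinases and a scaffold that pass the signal to NF-kappaB, had log2 fold changes of -0.03 (SE 0.32), 0.06 (SE 0.19) and 0.16 (SE 0.17), and none of these 3 was highest in KO_214, although 10 of the 19 genes were. All 17 NF-kappaB subunits and inhibitors were fitted, with none past the threshold, a median of 0.20 and 14 highest in KO_214. The subunit Rela and the kinase Chuk had log2 fold changes of -0.10 (SE 0.27) and 0.02 (SE 0.26). Nfkbia, an inhibitor of NF-kappaB that is itself an NF-kappaB target, was at 21.2 to 22.4 FPKM in the controls and at 18.9, 67.1 and 17.4 FPKM in KO_117, KO_214 and KO_218. It was thus even among the controls and high in KO_214, with the other Med23 CKO libraries under the controls.

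Of 20 other inflammasome genes 11 were fitted, with P2rx7 the single one past the unadjusted level. Nek7, which binds NLRP3 during its activation, had a log2 fold change of 0.22 (SE 0.31), Txnip, a thioredoxin inhibitor that can bind NLRP3, 0.95 (SE 0.61), and Panx1, a channel that releases ATP, -0.01 (SE 0.25). Txnip was at 11.5, 30.3, 33.3 and 7.85 FPKM in the controls and at 16.6, 61.3 and 40.7 FPKM in the Med23 CKO libraries, and the groups overlapped. Of 19 prostanoid and leukotriene genes 17 were fitted and none passed. Ptges3 and Lta4h, enzymes of prostaglandin E2 and leukotriene B4 synthesis, had log2 fold changes of 0.02 (SE 0.19) and -0.03 (SE 0.33), and Ptgds, the prostaglandin D synthase, -0.40 (SE 0.27).

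**Figure D5:**
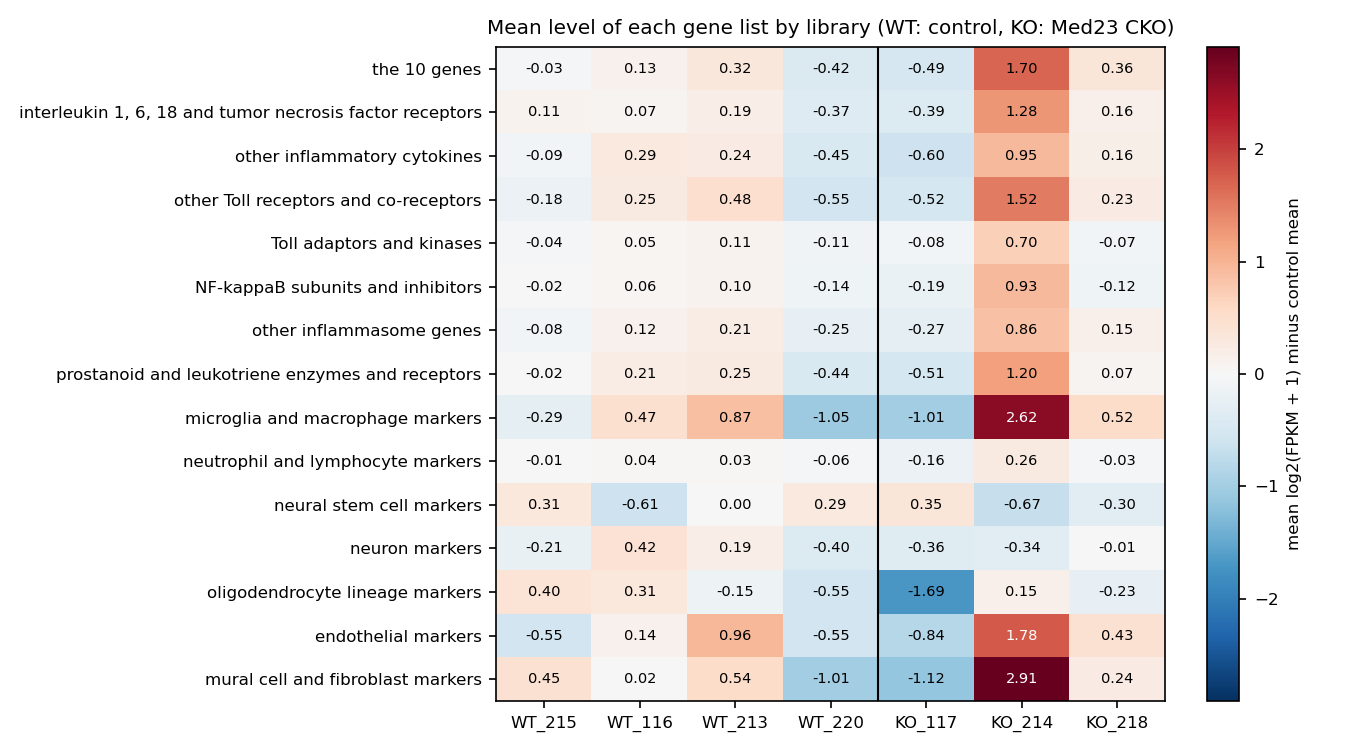
Mean log2(FPKM + 1) of each gene list in each library minus its mean over the 4 controls, in red where above and blue where below, with the value in each cell. KO_214 is the highest library for the 10 genes (1.70), for every pathway list and for the microglia, endothelial and mural lists, and WT_220 and KO_117 are the lowest for the 10 genes (-0.42 and -0.49).

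The genes whose pattern over the 7 libraries was most like the mean of the 10 genes were ranked by Pearson's r of log2(FPKM + 1) among the 14151 genes tested, as a description in which KO_214 is the extreme point. Tlr2 itself was first (r = 0.997), followed by Il15 (r = 0.997), Irgm1 (r = 0.996), Lmod1 (r = 0.995), AI607873 (r = 0.994), Atp6v0e (r = 0.994), Tbx3, Trim30a, Tbx15 and Slfn5 (r = 0.992). Il15, a cytokine that sustains lymphocytes, was at 2.57 FPKM in KO_214 and 0.116 to 0.615 in the controls. Irgm1, an interferon-induced GTPase, was at 20.1 FPKM in KO_214 and 5.52 to 8.57 in the controls, and Atp6v0e, a subunit of the proton pump of lysosomes, at 210 FPKM in KO_214 and 101 to 125 in the controls. Pycard ranked 196 and Tnf 347, while Il18 ranked 9103 (r = -0.40).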

How the data were processed

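The 7 libraries, each from the neurospheres of 1 mouse, were grouped into 4 control and 3 Med23 CKO by title and genotype label. The authors prepared libraries with the NEBNext Ultra kit, sequenced them on the Illumina HiSeq platform, removed adapters with cutadapt, aligned reads with TopHat under its defaults to mm10, and deposited FPKM per gene and library from Cuffdiff. The deposited table also holds the authors' group means and their own comparison (fold change, test statistic, p and q), which were not used. Among the genes that the paper reports as upregulated are Tnf, Ptgs2 and Tlr4. Those calls came from Cuffdiff with 3 mice a group, a test and a set of samples unlike those used here. The paper gives 3 mice a group and the table holds 4 controls, all of which were kept. Low FPKM values gave no whole fragments (at most 3.72% of low genes fell in 1 bin of 0.05 log2 units), so that depth is unknown, no count test was run and the number of libraries limits the precision. No 2 of the 21 pairs of libraries held identical values (correlations of 0.907 to 0.990), and 0 columns lacked a group.

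Values were analysed as log2(FPKM + 1), a scale that understates changes of low genes, for the 14151 genes with a mean of at least 0.5 FPKM. The groups were compared with limma 3.58.1 in R 4.3.3 (lmFit, eBayes with trend, two-sided, Benjamini-Hochberg adjustment over all genes tested), and single genes by an exact permutation test over the 35 assignments of libraries (two-sided). On simulated data of 14151 genes for this comparison, 145 of 200 genes changed by 2 log2 units and 4 unchanged genes had an adjusted p under 0.05. Each simulated gene was drawn on its own, with no library set apart, so these rates need not hold for the data. In the simulation 5.54% of unchanged genes had an unadjusted limma p under 0.05. In the data 0.502% of genes were higher and 0.996% lower at that level. Correlations were tested over all 5040 orders of the libraries (two-sided). The members and gene lists were chosen with earlier results of these data known, so lists are described by counts and medians without a test. Named were the 10 members, Med23, in each list the 3 most abundant genes and those with an unadjusted p under 0.05, and the 10 genes most like the members; of these, a selection from the marker lists is printed. Promoter sequences are from RefSeq (GRCm38.p6). Alternatives were another pseudocount (0.1), no filter or a minimum of 1 FPKM, quantile or median scaling, limma without trend, robust or with array weights, a covariate for the leading digit of each mouse's number, ratios of group means, and leaving out each library. Python 3.11.15 with scipy 1.17.1 was used for the other steps.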

Additional observations from a re-analysis of the deposited data

Results flagged for a closer look

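Among the log2(FPKM + 1) values of the 10 genes, Med23 and further genes screened within the 4 controls (24 groups of values in all), 1 held a library far from the others. Il1b was listed at 0.0420 FPKM in WT_215 and at 0 in the other 3 controls, so that the gap made up the whole range (a gap to range ratio of 1, above Dixon's critical value for 4 samples). With 3 controls tied at 0, any value above 0 in the fourth gives this ratio, so it says nothing beyond the listed values, and the usual chance rate of 1 in 20 groups does not apply.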

How the results depend on the processing

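Of 160 alternative values of the 10 genes, 152 kept their direction and 8 did not. A change of filter, limma without trend and robust limma cannot alter a log2 fold change, so agreement under those settings was fixed in advance. Without KO_214 the log2 fold change was -0.31 for Tnf, -0.12 for Il6, -0.10 for Nlrp3, -0.12 for Pycard, -0.58 for Ptgs2 and -0.11 for Tlr2. It was -0.03 for Ptgs2 without WT_220 and 0.011 for Il18 with array weights, a fit that stopped before convergence. The cause was not tested. At the other end, without KO_117, these 6 genes were at 1.52, 0.94, 0.85, 1.25, 1.55 and 1.24. Leaving out 1 library at a time, the median over the 10 genes ran from -0.11 (without KO_214) to 1.21 (without KO_117), and the number with an unadjusted p under 0.05 by limma from 0 to 4 (without KO_117). That number was 1, in each case Il1a, under quantile normalization, with array weights and with a covariate for the leading digit of each mouse's number. Over all genes, 140 were higher at that level with no filter, where more genes are tested, and 193 were higher and 887 lower with array weights. Leaving out 1 library at a time gave 44 to 358 higher and 70 to 412 lower, with the largest counts without KO_117, and 0 to 1 higher at an adjusted p under 0.05 (Snora64 without KO_214 and Gm38671 without KO_218, named after their values were seen). No paired analysis was possible because the mouse numbers are not shared between the groups. Depth is unknown, and genes under 1 FPKM, such as Il1b, Il6, Il1a and Nlrp3 in the controls, rest on few fragments. A group of 3 mice with 1 library apart from the rest limits every comparison.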
